A study of Bos taurus with 18 samples.

Results

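The regions described here were 2000-bp tiles of the cattle genome that a sharp methylation boundary split in sperm, so that one 1000-bp segment of the pair was nearly free of methylation and the other nearly fully methylated. They were chosen by measured values. For each segment, the percent of methylated reads at every listed position was averaged over the bulls listing it and then over positions, and a tile was a boundary tile when each segment held 5 or more positions, one segment was at 20% or less and the other at 80% or more. On chromosomes 1 to 29 this chose 10777 of 972736 tiles with 5 or more positions in each segment, from 1306056 tiles with any listed position in the whole series. Sperm of 18 Holstein bulls had been examined by whole-genome bisulfite sequencing, in which unmethylated cytosines are converted and methylated ones are kept, and positions with at least 10 reads were listed with the cytosines of both strands of a CpG apart. All bulls were fertile, age-matched animals represented by 1 washed semen straw each, with no treatment, so a group is a set of different bulls. The paper describes groups with high or low predicted transmitting ability (PTA, the genetic merit passed on to progeny). It does so for all traits below except sire conception rate, whose groups come from the labels alone. The high and low groups were H03, H09, L03 and L05 against H02, H05, L01 and L07 for gestation length (GL), L02, H03 and H07 against L09, H01 and H06 for sire calving ease (SCE), and L03, L08 and H02 against L02, H05 and H09 for body depth (BDE). They were L06, H08 and H09 against L08, L09 and H06 for cow conception rate (CCR), and H01, H02 and H03 against L01, L02 and L03 for sire conception rate (SCR). Groups of different traits share bulls and are not independent of each other, and the labels put neither H04 nor L04 in a group, so both served to choose tiles and were left out of comparisons. The label of the tissue could not be checked against markers, since the assay measures DNA alone.

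In mammalian sperm most CpGs are methylated, and the exceptions are short unmethylated stretches that usually lie at CpG-rich promoters and CpG islands, where the DNA is kept free of the mark during germ cell development. The change from the unmethylated to the methylated state takes place at the shore of such a stretch, over a short distance and at a place that is often shared between individuals of a species. A fixed tile that straddles the shore therefore holds positions of both states, and its mean depends on the level of both sides and also on how many positions of each side were read.

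The number of listed positions differed widely between bulls. They listed between 2858992 positions (H01) and 22048556 (H08). Read counts were listed for 6 bulls, with means of 12.8 to 13.7 reads per position, and the depth of the other 12 is unknown. The straws were separate bulls, so the spread between bulls holds biological and technical differences together.

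The boundary tiles were found on every autosome, at 11.1 per 1000 eligible tiles over all. The density was highest on chromosome 18, with 592 tiles or 20.7 per 1000, followed by chromosome 19 with 19.7 and chromosome 25 with 17.2. It was lowest on chromosome 6, with 7.75 per 1000, and on chromosome 20, with 7.85. Tiles with the low segment first numbered 5319 and those with the low segment second 5458. Because the rule set the levels, the levels are given as a description. The low segment had a median of 9.35% (quartiles 4.87 and 14.4) and the high segment a median of 91.4% (quartiles 86.6 and 94.5). The members nearest to the limits had a low segment at 19.9994% and 20% and a high segment at 80.0034%, and the nearest tiles outside had a low segment at 20.0031% and a high segment at 79.9986%.

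The low segment was much richer in listed positions, which the rule had used only as a minimum. Its median was 36 positions against 16 in the high segment, and it held more positions in 9238 tiles, or 85.7%, and fewer in 1385. Against other segments of the same state, however, the boundary segments were not rich. Low segments with low neighbours on both sides had a median of 47 positions, and high segments with high neighbours had 16. Single bulls read the low side less completely. A low-segment position was listed by a median of 3.68 bulls and a high-segment position by 5.17. Of all low-segment positions, a bull listed between 4.09% (H01) and 53.6% (H08), with a median of 20.5%, and of all high-segment positions between 5.34% and 66.2%, with a median of 26.9%. The share was lower on the low side in 17 of 18 bulls. The exception was L05, a high-GL bull, which listed 42.4% of the low-segment and 40.5% of the high-segment positions. In the 6 bulls with read counts, the positions that were listed carried more reads on the low side, 13.8 to 18.9 on average against 11.3 to 12.4 on the high side. A listed position had its partner on the other strand listed as well for a median of 75% of low-segment and 92.3% of high-segment positions.

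The change of state was located in each tile as the step that best split the position means in order along the DNA into a low and a high part. The step lay a median of 89.5 bp from the middle of the tile toward the low segment, and within 250 bp of the middle in 7907 tiles, or 73.4%. The rule set the levels of both 1000-bp segments and so favoured steps near the middle, and the place of the step is a description. The distance over which the running mean of 5 positions passed from 20% to 80% had a median of 553 bp (quartiles 406 and 744.5, n = 10775). It was over 1000 bp in 864 tiles. The spacing of listed positions limited the resolution, and the positions on both sides of the step were a median of 204 bp apart.

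Averaged over all tiles and turned so that the low side came first, methylation stood at 4.63% at 550 bp into the low side (the centre of a 100-bp bin) and at 25.3% in the last 100 bp before the step. It was 69.9% in the first 100 bp after the step, 85.6% at 250 bp and 93.2% at 850 bp. The low side was short. Methylation was back at 31.2% at 1450 bp, at 64.4% at 2450 bp and at 84.1% at 4950 bp from the step, while the far high side fell slowly to 86.4% at 4550 bp. The listed positions were densest where methylation was lowest, with 5.52 per 100 bp at 550 bp into the low side against 1.96 on the high side at 950 bp. At the step itself the density dropped to 1.28 to 1.40 per 100 bp, partly because the step was placed between neighbouring positions.

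**Figure D1:**
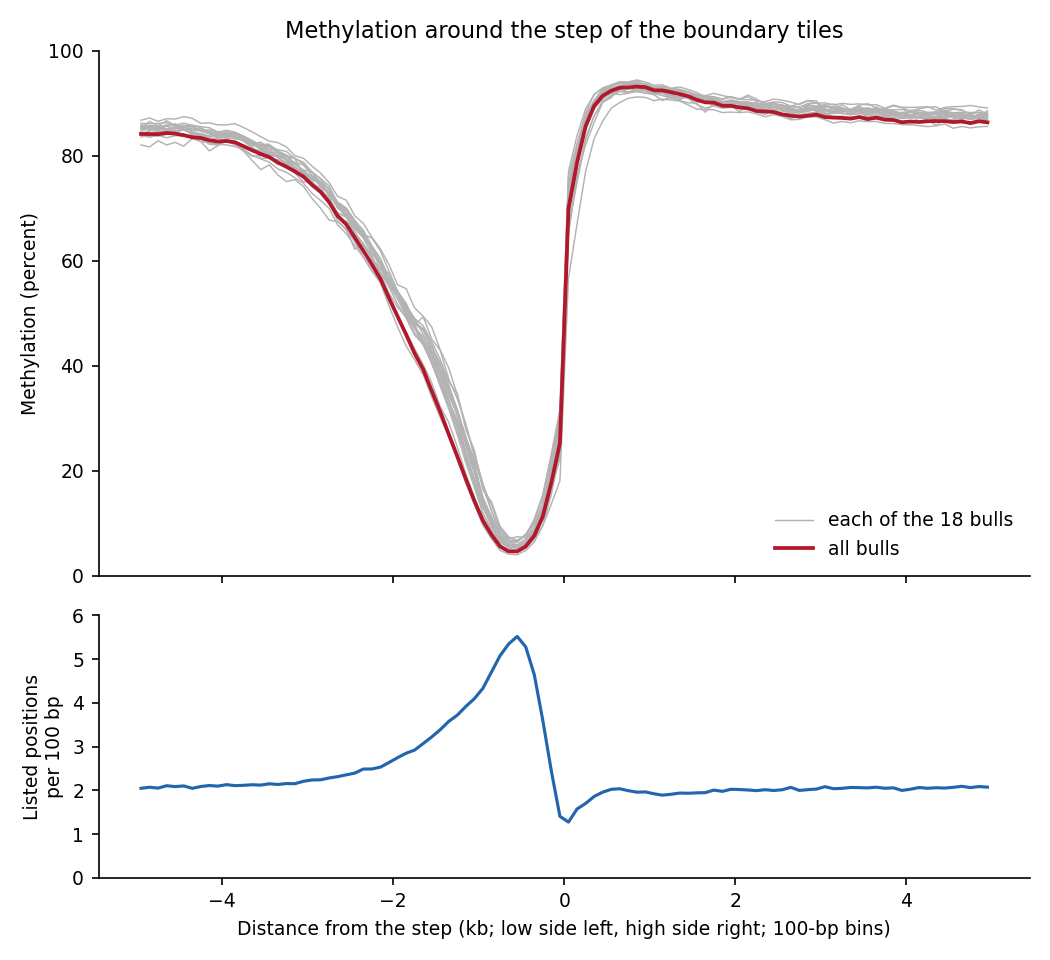
Mean methylation in percent (upper panel) and listed positions per 100 bp (lower panel) against the distance from the step in kb, in 100-bp bins, low side on the left. Grey lines are the 18 bulls and the red line is all bulls, and all lines are placed on the step found over all bulls, so their common place is built in; in the first 100 bp after it the bulls range from 56.6% (L06) to 77.0% (H06).

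Low and high stretches were followed segment by segment going away from the boundary, until a segment at another level or with fewer than 5 positions. The low run, of segments at 20% or less, was 1 segment in 4798 tiles, 2 in 3833, 3 in 1537 and 4 or more in 609. The longest low run had 105 segments. A segment with 5 or more positions ended 9728 of the low runs, in 4084 at 80% or more and in 5644 between 20% and 80%. The other low runs ended where too few positions were listed. On the other side, the run of segments at 80% or more had a median of 6 and reached 10 or more in 3903 tiles. In 957 cases the next boundary tile closed the same low stretch from the other side, which accounted for 1914 of the 10777 tiles. The distance between such facing steps had a median of 1824.5 bp, with quartiles of 1630 and 2079.5 bp, and 1 pair spanned 74348 bp. Each step lay near the middle of a fixed 2000-bp tile, so these distances fall near multiples of 2000 bp by construction. They are a description of the chosen tiles and no free measure of how long low stretches are.

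The narrowest steps are the extreme of the widths and not the usual transition. Whether the width went with the density of positions was not tested. All widths had a median of 553 bp. The tile at chr19:57728001-57730000, with 177 low-segment and 48 high-segment positions, changed over 431 bp. The 3 narrow tiles that follow had the shortest width among those with at least 20 positions in each segment. The tile at chr11:101348001-101350000 (UMD 3.1, as all positions here) passed from 20% to 80% within 38 bp, between 49 low-segment positions at 10.2% and 20 high-segment positions at 96.9%. Among the 18 bulls listing its low segment the levels ran from 0% to 28.0% (L01) with a median of 5.71%, and among the 16 bulls listing its high segment from 90.3% (H05) to 100% with a median of 96.4%. The bulls of this tile did not overlap between its segments. The tile at chr25:42512001-42514000 changed within 65 bp and held 105 low-segment positions at 14.1%. The tile at chr2:111222001-111224000 changed within 74 bp, and its low segment ran from 0% in L02 (5 positions) to 68.2% in L01, which listed 4 positions there.

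The levels of both segments could be read in bulls that had not been used to choose the tiles. When each bull was left out in turn and the tiles were chosen on the other 17, the left-out bull held 5 or more positions in both segments of 50 (H01) to 7840 (H08) of them, with a median of 3088.5. The median low segment in the left-out bull was between 7.31% (L05) and 13.8% (H06) and the median high segment between 87.6% (L06) and 93.6% (H04). The low segment was the higher one in 0 to 3 tiles per bull, and both limits were met in the left-out bull by 52.0% of the tiles in H01 to 80.3% in L05, with a median over bulls of 67.7%. The high segment exceeded the low segment by over 40 points in 94.0% to 99.4%. Of all tiles measured in a bull, whatever their level, 0.678% to 2.04% were split in this way, so the share among boundary tiles was far above that of other tiles in all 18 bulls, H04 and L04 included.

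**Figure D2:**
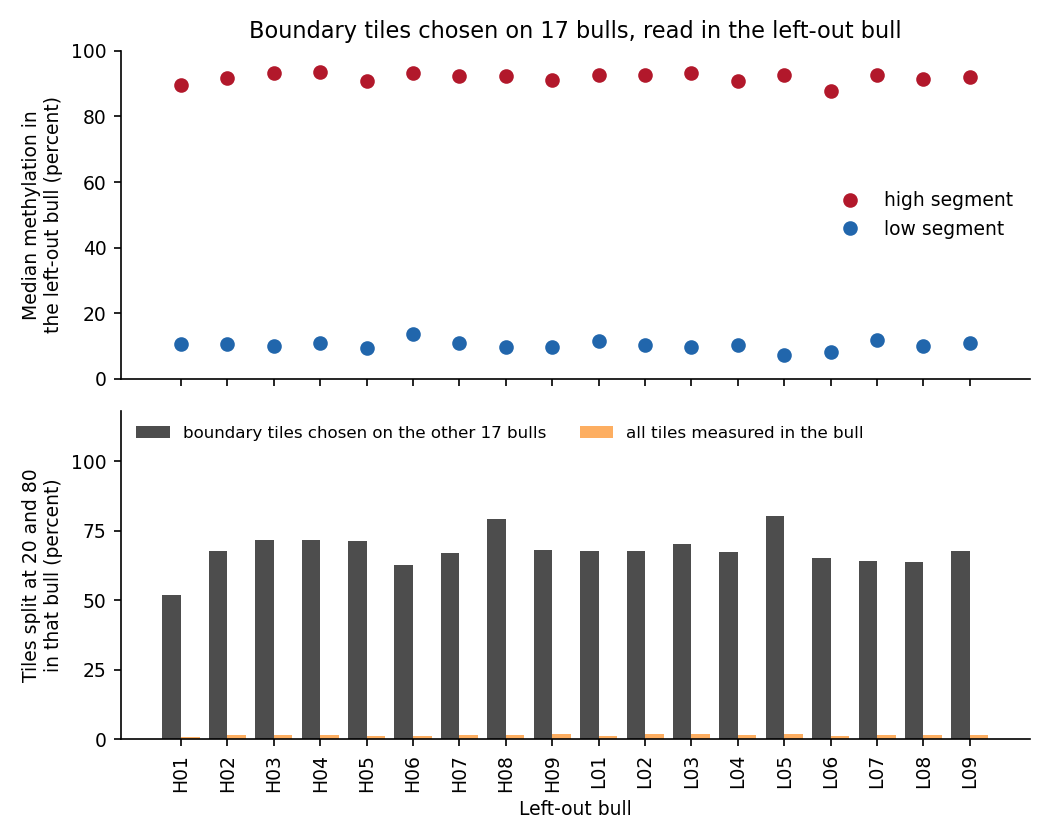
Upper panel, the median methylation in percent of the low segment and high segment in each left-out bull; lower panel, the percent of tiles with segments at 20 or less and at 80 or more in that bull, for tiles chosen on the other 17 bulls and for all tiles measured in it. Every low-segment median is below 14 and every high-segment median above 87, and the dark bars run from 52.0% to 80.3% against at most 2.04% for all tiles.

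The step was also located in single bulls, in 58403 combinations of a bull and a tile. It lay a median of 46 bp from the step over all bulls, and within 150 bp in 44011 of them, or 75.4%. The bulls contribute to the step over all bulls, so this nearness is a description. The mean signed distance differed between bulls, from 17.2 bp toward the low segment in L07 to 63.7 bp toward the high segment in L06 (6117 tiles), and the latter was the largest in size of the 18. At positions of intermediate mean, between 40% and 60% in 9 or more bulls, 34183 of 37291 values of single bulls, or 91.7%, were themselves between 20% and 80%. Values under 20% made up 4.23% and values over 80% 4.10%. At these positions the intermediate level was mostly present within single bulls.

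Of the tiles in which all 18 bulls listed 3 or more positions in each segment, 6 were taken. They were those with the most positions in the segment with fewer, among the tiles so listed, and they give the values of all 18 bulls. At chr19:57728001-57730000, with 177 low-segment positions, the low segment ran from 4.39% (H05) over a median of 7.38% to 15.04% (H07), and the high segment from 78.9% (L02) over 83.5% to 87.7% (H02). At chr10:26216001-26218000 the low segment ran from 1.78% (H04) over 3.90% to 7.58% (H07) and the high segment from 87.1% (L06) over 93.2% to 95.4% (L03). In these tiles the bulls formed tight groups on each side. At chr3:21452001-21454000 the low segment ran from 9.31% (L02) over 20.7% to 27.8% (H04), and the high segment from 72.5% (L06) over 93.0% to 95.7% (H06). There, L06 stood 11 points or more below every other bull on the high side.

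The other tiles of the 6 had wide low segments. At chr13:10990001-10992000 the low segment ran from 4.33% (H02) over 15.7% to 50.5% (H06). H06 listed 11 low-segment positions, L08 listed 9 at 49.9% and H01 6 at 43.5%, whereas L09, which listed the most, had 9.87% over 61. At chr13:73350001-73352000 the low segment ran from 13.1% (H07) over 25.6% to 70% (L08, 4 positions), and the high segment from 81.2% to 94.4%. At chr19:41186001-41188000 the low segment ran from 0% (H04) over 11.1% to 29.0% (L03), and the high segment from 58.6% (H02, 3 positions) over 83.7% to 90.7% (L08). In all 6 tiles every bull was lower in the low segment than in its own high segment.

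**Figure D3:**
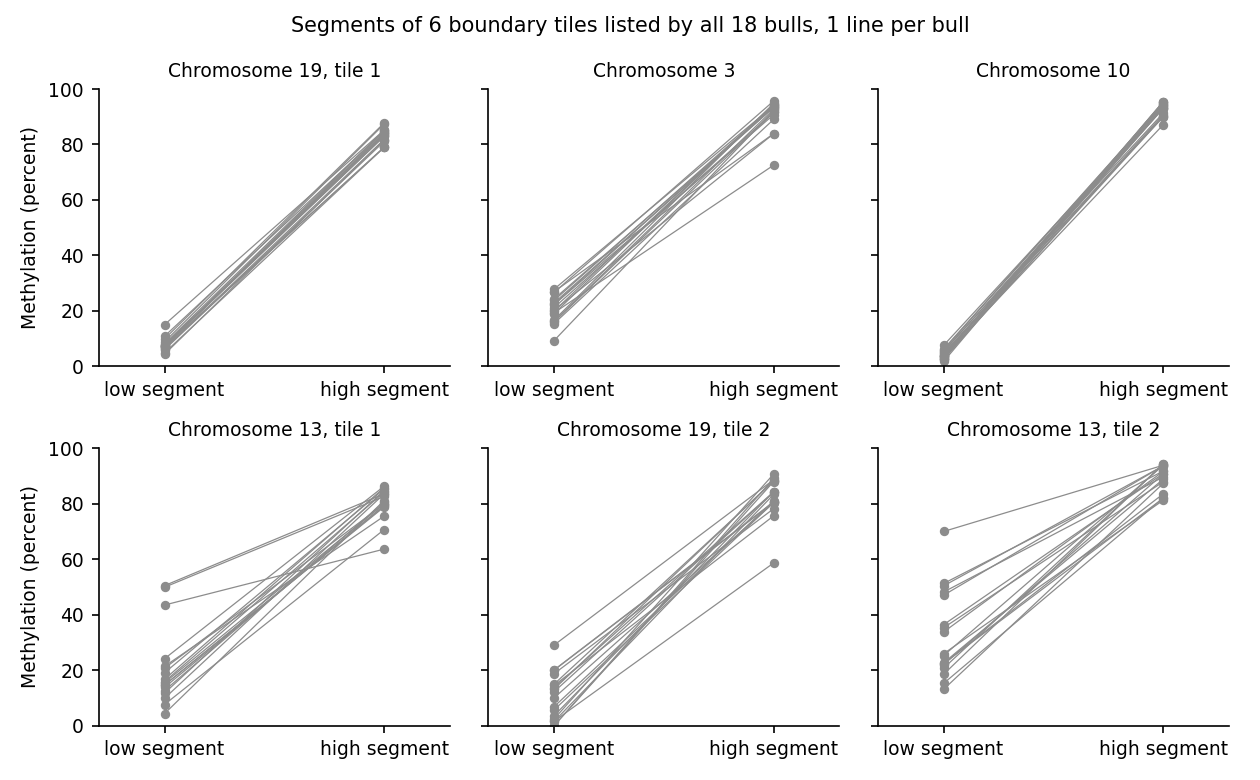
Methylation in percent of the low and high segment of 6 boundary tiles in which all 18 bulls listed 3 or more positions in each segment, each line joining the segments of 1 of the 18 bulls. All lines rise; in the chromosome 10 tile the low segments lie between 1.78 and 7.58, and in the second chromosome 13 tile they reach 70.

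The spread between bulls was larger in boundary segments than in the interior of low and high stretches. Among tiles with 5 or more positions per segment in 10 or more bulls (1778 tiles), the SD between bulls had a median of 6.50 points in the low segment and 4.37 in the high segment. Low segments with low neighbours on both sides had a median SD of 1.97 points (n = 8720) and high segments with high neighbours 3.15 (n = 469246). The spread was smaller once the listed positions were taken into account. When each value was first centred on the mean of its position over the bulls listing it, the median SD of the low segment fell from 6.05 to 2.80 points (n = 5622) and that of the high segment from 4.43 to 3.34 (n = 4196). After the same centring the median SD was 1.70 points in interior low segments (n = 8491) and 2.73 in interior high segments (n = 460402), so on the high side the boundary and interior values lay close together. The centring uses the bull's own value and so shrinks every SD, and more so where fewer bulls list a position. A low-segment position was listed by a median of 3.68 bulls and a high-segment position by 5.17. How much of each fall came from this was not tested.

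In the tiles with the largest SD in the low segment, the high values came from bulls with few listed positions there. At chr22:48370001-48372000 the low segment had a mean of 13.2% over its 44 positions, yet the 10 bulls with 5 or more positions in each segment ran from 13.8% over 58.4% to 93.3%, an SD of 30.2 points. L05 had 13.8% over 26 positions and H08 18.4% over 33, whereas H06 had 93.3% over 5, H03 92.5% over 5 and H05 91.4% over 6. Centred on position means, the SD of this segment was 1.79 points. The tiles at chr17:66234001-66236000, chr19:61624001-61626000 and chr4:117904001-117906000 had SDs of 29.7, 28.3 and 28.1 points in the low segment and 2.42, 2.53 and 3.01 after centring. Their single bulls reached 94.7% (L07), 96.6% (H04) and 100% (H06), each over 5 positions. From the middle of the tile, negative toward the low segment, the step lay at -468 bp (chr22), -336.5 (chr17), -289.5 (chr19) and -253.5 (chr4). The low segment of each could thus hold positions from both sides of the step. Whether this moved the spread was not tested.

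The high segment varied most at chr28:25934001-25936000, where 14 bulls ran from 20.6% (H03, 8 positions) over 81.8% to 95.4% (H06), an SD of 19.9 points that was 6.18 after centring. At chr11:27138001-27140000 the SD was 18.4 points, with L08 at 38.5% and H05 at 95.0%, and 5.83 after centring. The tiles at chr14:4472001-4474000 and chr14:8158001-8160000 had SDs of 16.0 and 15.6 points, and the latter kept the largest value of the 8 tiles after centring, 7.96 points. Its high segment stood at 44.3% in L06 and 88.8% in H03. In the order named, the step of these tiles lay 173.5, 216.5, 312.5 and 102 bp from the middle toward the high segment. That segment could thus hold positions from both sides of the step, and whether this moved the spread was not tested.

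Groups were compared by a logistic test on methylated and unmethylated reads pooled over each tile, with a tile called at q under 0.01 and a difference over 5 points. Differences between bulls of 1 group do not enter its error. In the GL comparison 4209 of 8086 tested boundary tiles, or 52.1%, were called, against 8.75% of all 593044 tested tiles. Methylation was lower in the high-GL bulls in 3082 boundary tiles and higher in 1127, while of all tiles 3.75% were called lower and 4.99% higher. In SCE 2402 of 5527 boundary tiles, or 43.5%, were called against 6.18% of all tiles. They were lower in the high group in 1482 and higher in 920, against backgrounds of 3.54% and 2.64%. In BDE 3394 of 7433, or 45.7%, were called against 7.57%, with 1387 lower and 2007 higher against 2.86% and 4.71%. In CCR 3970 of 7503, or 52.9%, were called against 11.1%, with 3082 lower and 888 higher against 8.48% and 2.58%. In SCR 2770 of 5734, or 48.3%, were called against 8.68%, with 1439 lower and 1331 higher against 4.54% and 4.13%. Without H03 the order of the SCR directions turned, with 2836 called (49.0% against 8.87%), 1143 lower and 1693 higher. The directions over all tiles without H03 are not given, so this turn is not set against a background. In all 5 comparisons the share of boundary tiles called was far above that of all tiles. The rule set the segments of a boundary tile far apart in level, so unequal listing of the segments moves its mean by construction. The excess over all tiles is therefore a description. Without H01, the bull with the fewest positions, more tiles could be tested, and 3905 (45.8% against 6.80% of all tiles) were called in SCE and 4537 (50.8% against 9.38%) in SCR.

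The whole-tile difference can be divided exactly into a term for the share of positions each group lists in the low segment and a term for the levels within the segments. In SCR, which was tested on listed read counts, this share is one of reads rather than positions. Among called GL boundary tiles with both segments listed in both groups (4125), the median difference was 16.3 points, of which 13.1 lay in the position term and 2.70 in the level term. The group with the lower methylation listed the larger share of low-segment positions in 4091 of them, or 99.2%, against 90.6% of all tested GL boundary tiles with both segments listed and 75.2% of all called GL tiles. In all called GL tiles the order was the other way round, with medians of 0.884 points for the position term and 8.06 for the level term. A position term can be large only where the segments differ in level, which the rule required of boundary tiles. The contrast with all called tiles therefore follows from the choice of tiles and is a description. In the other comparisons the median position term of called boundary tiles was 16.1 points (SCE), 15.9 (BDE), 13.8 (CCR) and 14.7 (SCR), and the level term 4.30, 3.92, 5.10 and 3.46. The group with lower methylation had the larger share in the low segment in 98.9%, 98.9% and 98.0% of them by positions (SCE, BDE and CCR) and in 98.8% by reads (SCR). In all tested boundary tiles this was so in 88.4%, 88.8%, 87.8% and 89.1%, and in all called tiles in 72.4%, 73.4%, 70.4% and 71.96%.

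The relation was close to a straight line. Where the high-GL bulls listed a share of low-segment positions about 40 points above that of the low-GL bulls (183 tiles), the median whole-tile difference was -33.9 points and 100% of the tiles were called. Where the share was about 40 points below (66 tiles), the difference was 34.7 points and 97.0% were called. Where the shares were about equal (2223 tiles), the difference was -0.84 points and 7.60% were called. At positions listed in both groups, the medians in the same tiles were 0.198, 0.374 and -0.0579 points. In CCR the matched median was below 0 at every share difference, between -3.36 and -1.66 points over the bins of 10 points. In BDE it was above 0 at 0.452 to 1.29 points, except for -0.0347 and 0 in the bins where the high group's share was higher by about 50 points or more. In SCE and SCR it ran from -1.14 to 0.0893 and from -2.33 to 1.54. The points are tiles of the same bulls, and the whole-tile difference holds the share by construction, so the relation is given as a description.

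**Figure D4:**
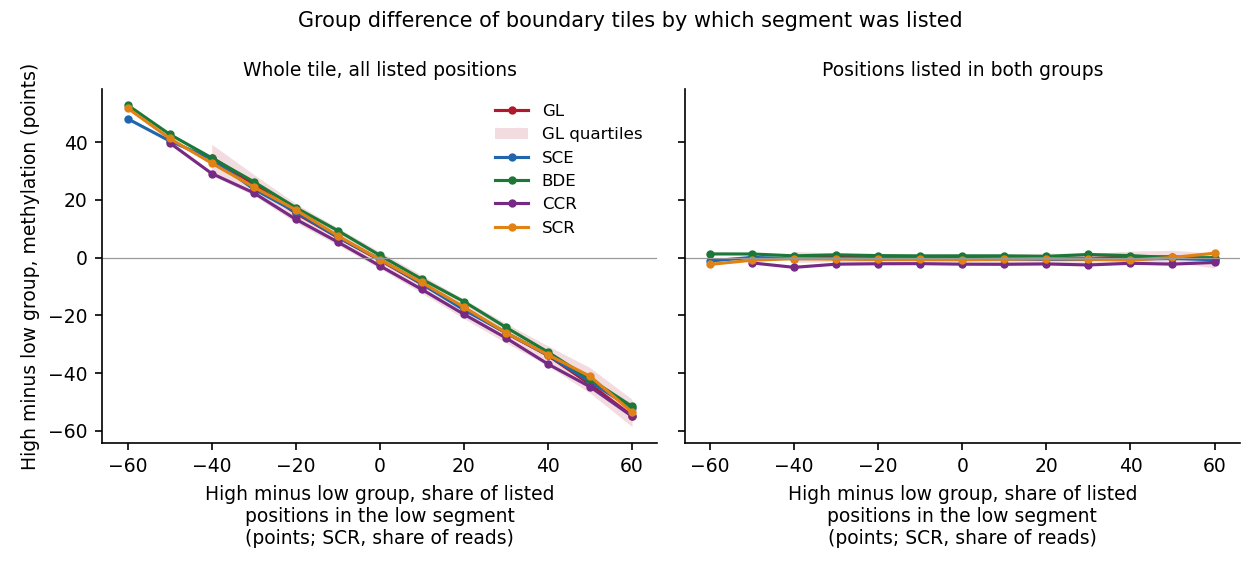
Median difference in methylation between high and low groups in points against the difference in the share of listed positions (in SCR, of reads) in the low segment in points, for boundary tiles in bins of 10 points with 20 or more tiles, the outermost bins holding all larger differences; shading gives the quartiles for GL. With all listed positions the GL median runs from 34.7 to -54.8 points, and at positions listed in both groups it stays between -0.483 and 0.374, while the CCR median is below 0 throughout.

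When the test used matched positions, that is those with a bull from both groups, and took every position as its own stratum (Cochran-Mantel-Haenszel), far fewer tiles were called. It called 80 GL boundary tiles, or 0.989%, against 2.19% of all tiles. In SCE it called 22, or 0.398%, against 1.31%, in BDE 56, or 0.755%, against 1.6%, and in SCR 38, or 0.663%, against 1.17%. In these comparisons the share of boundary tiles was below that of all tiles. The rule set the levels of boundary tiles, and their number of matched positions was not compared with that of other tiles. The lower share is therefore a description and no measure of how stable these tiles are. In CCR the matched test called 376, or 5.01%, against 4.4%. Of these, 367 were lower in the high-CCR bulls, a direction called in 3.59% of all tiles. Single bulls moved the CCR count, with 103 called without H06 (1.36% against 1.77% of all tiles), 137 without L06 (1.82% against 2.58%), 562 without H08 (7.44% against 8.08%) and 330 without L08 (3.84% against 3.998%). The share was below that of all tiles in these 4 of the 6 omissions, and above it without H09 (429, 5.35% against 4.50%) and L09 (382, 4.79% against 4.32%). In GL 53 were called without L05 (0.654% against 1.61%). In SCE 14 were called without L02 (0.252% against 1.29%) and 40 without H01 (0.472% against 1.31%). In BDE 35 were called without H05 (0.472% against 1.02%), and in SCR 24 without H03 (0.418% against 0.951%) and 24 without L01 (0.419% against 1.05%).

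When the segments were kept apart as strata, so that the share of positions in each segment no longer entered, 13.1% of GL boundary tiles were called against 5.97% of all tiles. The shares were 11.5% against 4.29% in SCE, 12.5% against 5.17% in BDE, 23.1% against 8.45% in CCR and 14.4% against 6.31% in SCR. The excess lay in the low segment. That segment held the step in 7191 of 10777 tiles, or 66.7%, so it could hold positions from both sides of the step. Their share was not held fixed within it, and whether this moved the calls was not tested. Tested alone, the low segment was called in 16.4% of GL boundary tiles and the high segment in 4.6%, against 4.5% of all 1000-bp segments. In SCE these shares were 12.4% and 2.69% against 3.23%, in BDE 14.2% and 4.01% against 4.06%, in CCR 24.0% and 6.35% against 6.05%, and in SCR 16.2% and 5.61% against 5.36%. The calls at matched positions were fewer still.

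**Figure D5:**
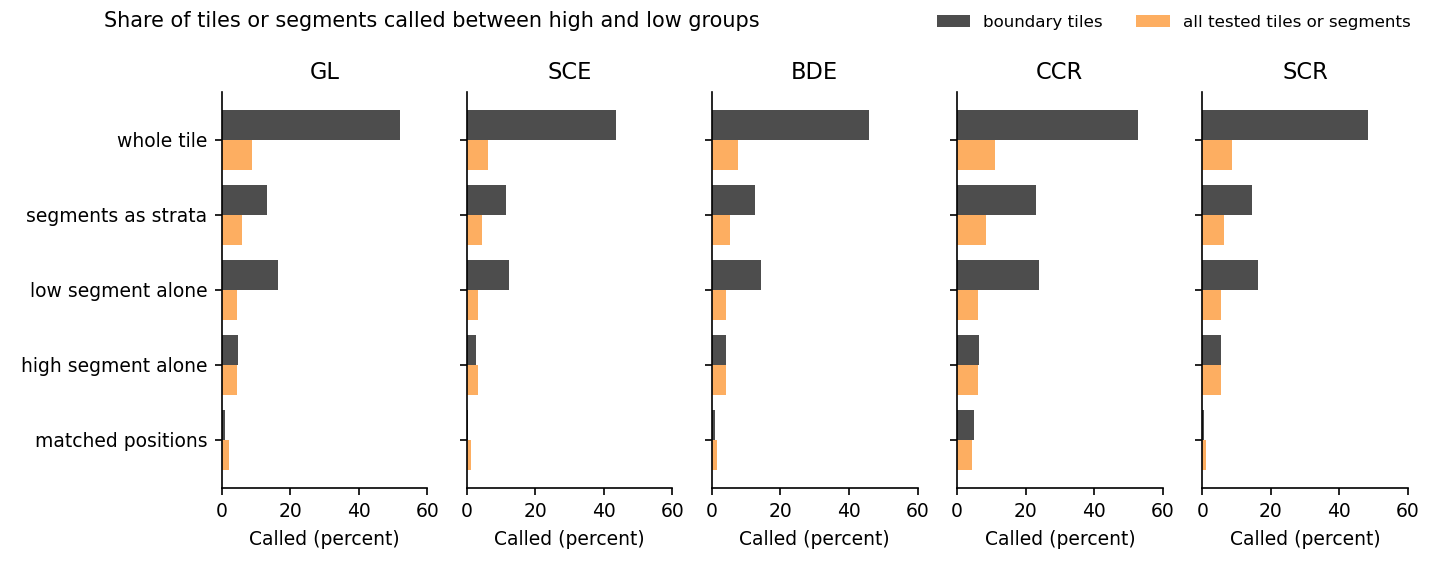
Percent of boundary tiles (dark) and of all tested tiles or segments (orange) called between the high and low groups of each comparison, by the test used. The dark bars for the whole tile are between 43.5 and 52.9, and those for matched positions between 0.398 and 5.01.

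With the spread between bulls in the test, no boundary tile was called in any of the 5 comparisons by an F test with overdispersion or by limma, and neither called any of the other tested tiles. The smallest Benjamini-Hochberg adjusted p of limma among boundary tiles was 0.127 in BDE, 0.171 in CCR and 0.980 in GL, 0.9987 in SCR and 0.99996 in SCE. Before adjustment, with p below 0.05 and the same minimum difference, limma passed 976, 709, 1001, 1322 and 650 boundary tiles in GL, SCE, BDE, CCR and SCR. These were 12.1%, 12.8%, 13.5%, 17.6% and 11.3% of those tested, against 3.59%, 3.30%, 3.84%, 3.61% and 3.40% of all tiles. The F test passed 548, 311, 393, 632 and 328, or 6.78%, 5.63%, 5.29%, 8.42% and 5.72%, against 3.47%, 2.46%, 2.81%, 2.89% and 2.72% of all tiles. Both tests read all listed positions of the tile. The per-bull means of the groups did not overlap in 3.31% of GL boundary tiles, 9.28% in SCE, 10.2% in BDE, 12.9% in CCR and 8.96% in SCR. In all tested tiles these shares were 3.30%, 9.26%, 10.1%, 9.94% and 9.12%, so they differed little except in CCR.

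L05 and L06 stood apart among the bulls in ways that touched these counts. L05 had the lowest mean low segment, 9.62%, and listed 68.6% of its boundary-tile positions in the low segment, the highest of the 18 bulls, where the other high-GL bulls listed 61.5% (H09) to 63.9% (H03) and the low-GL bulls 60.8% to 61.6%. The share was 64.1% ± 3.13 (SD, n = 4) in the high-GL and 61.3% ± 0.345 in the low-GL bulls. Without L05, 3849 GL boundary tiles (47.4% against 7.84% of all tiles) were called, 2126 lower and 1723 higher in the high-GL bulls. The majority in the lower direction was thus smaller without that bull. The directions over all tiles without L05 are not given, and whether the shift was particular to boundary tiles was not tested. L06 had the lowest mean high segment, 86.0%, and H06 the highest mean low segment, 16.9%. Over all positions listed in the genome H06 also had the highest mean of the 18 bulls, 85.0%, so its height was not particular to boundary tiles. L06 had 80.4% there, and H01 was lowest at 76.8%. Centred on position means, L06 lay 3.79 points below in the high segments and 1.95 below in the low segments, and H06 lay 1.69 and 2.16 points above. The high-CCR bulls were at -0.804 ± 1.01 and the low-CCR bulls at 1.41 ± 0.757 points (SD, n = 3 each) in the low segments. The highest of the former was H09 at -0.0294 and the lowest of the latter L09 at 0.649, so the groups did not overlap there. In the high segments they did, with H08 at 0.583 above L08 at 0.225 and L09 at 0.0307. Whether the bull or the trait moved these levels cannot be told apart with 3 bulls per group.

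The values of single called tiles follow, chosen by their difference and given as a description. The largest GL loss was at chr1:58384001-58386000, with 71.1 points less in the pooled high-GL reads. L05 listed 28 low-segment positions at 0.622% and no other GL bull listed any there, and all 8 bulls listed 1 to 3 high-segment positions at 82.9% to 100%. The difference at the 3 matched positions was 1.56 points. The largest GL gain was 61.8 points at chr13:82316001-82318000. There H02, H05 and L01, low-GL bulls, listed 16, 12 and 6 low-segment positions at 2.23%, 0% and 4.57%. Among the high-GL bulls H09 listed 1 such position at 0%. Matched positions differed by -0.933 points there, and the groups overlapped in both tiles.

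The GL tiles below were selected on the sign and size of their matched difference, among called tiles whose groups did not overlap and whose matched difference had the same sign and exceeded 5 points. The largest loss among them was at chr11:104366001-104368000. H03, H09, L03 and L05 had whole-tile means of 50.9%, 28.6%, 37.5% and 6.51%, and H02, H05, L01 and L07 had 100%, 67.0%, 89.4% and 85.3%, so every high-GL bull was lower. The pooled difference was -63.7 points and that at the 8 matched positions -7.47, with 80.6% of the positions of the high-GL and 6.67% of those of the low-GL bulls in the low segment. The next, at chr14:65898001-65900000, had a pooled difference of -62.4 points and -9.05 at 2 matched positions. The gains were at chr27:1648001-1650000, with 43.7 points pooled and 15.7 at 4 matched positions, and at chr6:74148001-74150000, with 41.0 and 5.36 points at 9. None of these 4 tiles was called at matched positions, and limma's adjusted p was 0.980 for each.

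In SCE the tile with the largest loss, chr5:109926001-109928000, was 80.4 points lower in the high group. H03, H07 and L02 listed 23, 2 and 7 low-segment positions at 1.40%, 0% and 1.299%, while H01, H06 and L09 listed none and had high segments of 90%, 90.5% and 93.3%. The groups did not overlap, and the 3 matched positions did not differ. The largest SCE gain was 73.3 points at chr17:62490001-62492000, where L09 listed 23 low-segment positions at 0.962%. There the groups overlapped, the mean of the segments differed by 26.1 points, and the 3 matched positions had the opposite sign, with -2.64 points. Among tiles selected in the same way as in GL, chr6:17166001-17168000 had -75.1 points pooled and -16.5 at 2 matched positions, and chr13:38910001-38912000 had -58.8 pooled and -5.74 at 8. In the latter H03, H07 and L02 were at 30.4%, 24.0% and 15.2%, and H01, H06 and L09 at 100%, 84.0% and 60%. The gains of the same selection were chr19:40018001-40020000 (51.9 points pooled and 9.33 at 3 matched positions) and chr12:36370001-36372000 (44.4 and 6.36 at 6).

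In BDE the largest gain was 83.5 points, at chr19:25850001-25852000. H02, L03 and L08 listed 11, 4 and 4 high-segment positions and no low-segment position, with means of 90.5%, 98.2% and 97.5%. H05, H09 and L02 listed 27, 9 and 14 low-segment positions and had whole-tile means of 13.03%, 4.44% and 7.27%. This tile had the smallest limma adjusted p among BDE boundary tiles, 0.127, yet its 5 matched positions differed by 1.05 points. The largest loss, -76.8 points at chr2:122936001-122938000, was reversed at its 2 matched positions, with 7.05 points. The tile at chr6:63126001-63128000 was selected for groups that did not overlap and a matched difference over 5 points in the same direction. Its gain was 71.6 points pooled, 48.7 points as the mean of the segments and 27.4 points at 5 matched positions. It was called at matched positions, and limma's adjusted p was 0.745. H02, L03 and L08 were at 80.2%, 82.5% and 93.9% and H05, H09 and L02 at 9.09%, 24.8% and 12.7%. In its low segment H02 had 75% over 2 positions against 5% over 20 in H05 and 1.58% over 19 in L02. The other selected tiles were chr12:49872001-49874000, with 73.9 points pooled and 5.18 at 5 matched positions, chr25:27442001-27444000, with -66.1 and -6.49 at 5, and chr9:62812001-62814000, with -50.6 and -15 at 2.

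In CCR the largest loss was -82.8 points at chr11:100974001-100976000, where H08, H09 and L06 were at 14.8%, 0% and 44.6% and H06, L08 and L09 at 98.6%, 100% and 100%. H06, L08 and L09 listed 5, 2 and 1 positions, all in the high segment, while H08 listed 42 low-segment positions at 1.66%. The 5 matched positions differed by -5.50 points. At chr25:34930001-34932000 the pooled difference was -76.9 points and the matched difference -11.0 at 6 positions. The largest gain was 60.6 points at chr2:122696001-122698000, with 1.21 points at 4 matched positions. The selected gains were smaller, 29.4 points at chr19:39700001-39702000 and 24.0 at chr14:10624001-10626000. The latter had 24 matched positions, the most of the tiles selected in this way, and a matched difference of 7.06 points that was not called.

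In SCR, tested on the listed read counts, the largest loss was -77.0 points at chr5:54532001-54534000. It was called at matched positions as well, by -22.8 points at 6 positions. In its low segment H02 and H03 had 3.26% over 12 and 13.6% over 15 positions, and L01 and L02 had 77.7% and 100% over 2 each, while H01 with 1 high-segment position at 90% overlapped with the low-SCR bulls. The largest gain was 76.7 points at chr11:40250001-40252000, with no difference at 2 matched positions. Selected tiles were chr13:42160001-42162000 (70.5 points pooled and 9.27 at 3 matched positions) and chr13:58586001-58588000 (62.0 and 16.2 at 4) among the gains. The losses were chr13:30682001-30684000 (-52.1 and -14.97 at 6) and chr11:50374001-50376000 (-52.0 and -19.8 at 5). In the last of these the low segment had 80.8% in L01 and 73.1% in L02 over 2 positions each, and 6.65% in H03 over 8.

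Of 25 genes that fine mapping had placed at GL loci, 8 held a boundary tile within 2000 bp. These were 7 tiles of the 689 eligible ones at the genes, or 1.02%, against 1.11% of all eligible tiles, so boundary tiles were about as frequent there as elsewhere. NRG2 encodes a neuregulin, a ligand of ErbB receptors, ZNF613 and ZNF16 zinc finger proteins, WWP2 a ubiquitin ligase and NDEL1 a partner of dynein. HSF1 is the transcription factor of the heat shock response and BOP1 takes part in ribosome assembly.

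The ZNF613 tile, chr18:58126001-58128000, had 28 low-segment positions at 12.6% and 12 high-segment positions at 94.9%. Its low segment ran from 0% over 12.0% to 24.2% in 17 bulls and its high segment from 88.5% over 94.9% to 100% in 14, with no overlap. In GL the pooled difference was -42.3 points and the tile was called. The whole-tile means were 21.3% ± 12.7 in the high-GL and 64.5% ± 32.3 in the low-GL bulls (SD, n = 4), and the high-GL bulls listed 82.0% of their positions in the low segment against 33.3%. As the mean of the segments the difference was -3.75 points and at 14 matched positions -4.02, and neither was called. The tile was also called in SCE, BDE, CCR and SCR, by -23.1, -23.3, -11.2 and -22.0 points, with -0.243, -1.53, -1.50 and 3.88 points at matched positions.

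The ZNF16 tile, chr14:1434001-1436000, had opposite signs in the same comparison. Its low segment ran from 0% over 1.15% to 9.09% in 17 bulls and its high segment from 77.4% over 86.9% to 100% in 16. The pooled GL difference was 15.2 points, with 43.4% of the positions of the high-GL and 67.5% of those of the low-GL bulls in the low segment. As the mean of the segments it was -5.26 points and at 40 matched positions -6.95, both called in that direction. The tile was also called in SCE, by 26.2 points, with 0.44 at 11 matched positions. In SCR the pooled difference was -43.4 points and -1.96 at 13 matched positions, and the low segment held 74.4% of the listed reads of the high-SCR and 22.6% of those of the low-SCR bulls.

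The NRG2 tile, chr7:52906001-52908000, had a low segment of 2.50% to 15.4% in 13 bulls and a high segment of 41.7% (H07, 1 position) to 100% (L03 and L05, 1 position each) in 18. It was called in GL by -16.8 points, in SCE by -34.4, in BDE by -24.3 and in CCR by -32.9. At 12, 9, 5 and 10 matched positions it differed by 3.65, 2.77, 2.79 and 3.79 points, so the sign there was the opposite in all 4. As the mean of the segments the differences were 0.871, -5.92, -0.0251 and -5.23 points, opposite to the pooled sign in GL alone. None of these was called at matched positions or with segments as strata. The NDEL1 tile, chr19:28636001-28638000, was called in GL by -11.05 points, with 0.708 at 21 matched positions, in BDE by -36.5, with 5.59 at 9, and in SCR by -19.3, with -1.25 at 14. Its high segment ran from 61.2% (L06) over 82.5% to 92.6% (H08).

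The WWP2 tile, chr18:36962001-36964000, was not called in GL, with 2.92 points pooled and 1.28 at 17 matched positions. Its low segment ran from 3.33% over 14.1% to 80% in H09, which listed 1 position there, and its high segment from 88.6% (L06) over 96.8% to 100%. It was called in SCE by 25.3, in CCR by 9.83 and in SCR by 24.1 points, with -7.36, -2.34 and -2.60 points at matched positions. The tile at chr14:1826001-1828000 lay in BOP1 and beside HSF1 and was in none of the 5 comparisons, since in each of them at least 1 bull listed no position in it. Its low segment ran from 0.909% over 11.5% to 40% (H04) in 14 bulls and its high segment from 90% over 98.8% to 100% in 12. The CYSTM1 tile, chr7:53104001-53106000, could be compared in CCR alone, where it was called by -18.4 points with -3.32 at 14 matched positions.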

How the data were processed

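The authors trimmed reads (Trim Galore 0.4.0, with FastQC 0.11.2 for quality), mapped them to UMD 3.1 with Bowtie2 and extracted methylation with Bismark 0.14.5, per the study's methods and the labels. The authors deposited, for each of 18 bulls, the percent of methylated reads at every position with at least 10 reads, and for 6 bulls also the count of reads there. Another deposited column of those bulls, 100 minus the percent, was not used. For 12 bulls the depth is unknown, so each position counted as 10 reads except in SCR, where all bulls have listed counts (matched positions used 10 reads throughout). Intervals that need depth are not given.

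From these values, positions were summed per bull in 2000-bp tiles and 1000-bp segments. Boundary tiles and gene and tile lists were chosen with earlier results of these data known. Tiles of the whole genome in which each bull compared listed 1 or more positions were tested by a logistic likelihood ratio test after the study's methods, with q values by a simplified SLIM estimate. Other tests were an F test with overdispersion, limma 3.58.1 (R 4.3.3) on log2 of methylated over unmethylated reads with 1 read added to each, and Cochran-Mantel-Haenszel tests stratified by position or by segment, with Benjamini-Hochberg adjustment for the F test and limma and SLIM for the others. A matched difference weights positions by the harmonic size of both groups. Tests and the step finder were tested on simulated data. Python 3.11.15, NumPy 2.4.6, SciPy 1.17.1 and matplotlib 3.10.9 were used.

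Tiles were named by rule: the 6 with the most bulls listing 3 or more positions in each segment, ties by the larger number of positions in the segment with fewer; per comparison the largest called gain and loss, and the 2 largest gains and losses among called tiles with groups apart and a matched difference over 5 points; the 3 narrowest steps with 20 or more positions per segment; the 4 largest SDs per segment; and all at the 25 fine-mapped genes with 2000 bp on each side. UMD 3.1 sequence and gene annotation were not used here.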

Additional observations from a re-analysis of the deposited data

Results flagged for a closer look

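In groups of 4 bulls, 18 sets of GL values were compared with Dixon's limit for a lowest or highest value, and chance passes about 1 set in 20. That rate does not hold for the sets from tiles named for their large GL difference, since the choice of these tiles favours a bull that stands apart. Of these, 3 passed, all with L05 as the lowest high-GL bull. The mean low segment of L05 was 9.62%, against 13.1% in the next bull. At chr6:74148001-74150000 the whole-tile mean of L05 was 79.3%, against 97.0% in the next, and at chr1:58384001-58386000 it was 7.25%, against 97.4%. In both tiles L05 was the high-GL bull that listed low-segment positions, 1 and 28 of them.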

How the results depend on the processing

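No paired analysis was possible because the compared groups are different bulls, and the replicate numbers only name bulls within a group and do not come from the labels. The 10777 boundary tiles became 11545 with 3 or more positions per segment, 8619 with 10 or more, 14819 at limits of 25 and 75, 2961 at limits of 10 and 90, 8283 with positions listed in 3 or more bulls and 1082 in 9 or more, 10776 with tiles shifted by 1000 bp, 9703 with strands merged and 7833 as the mean over bulls. Without 1 bull they were between 10483 (H08) and 10798 (L08). The median step moved from 89.5 to 94.5 bp into the low segment and the median width from 553 to 403 bp under the alternatives. Called boundary tiles in GL, SCE, BDE, CCR and SCR numbered 2753, 977, 1986, 2418 and 1188 when each bull had to list 3 or more positions in a tile, where fewer tiles could be tested (5310, 2343, 4243, 4521 and 2505), that is 51.8%, 41.7%, 46.8%, 53.5% and 47.4% against 8.77%, 6.63%, 8.15%, 11.4% and 9.33% of all tiles. They numbered 0 in each with the F test and with limma, and 80, 22, 56, 376 and 38 at matched positions. With segments as strata they numbered 1045, 609, 880, 1672 and 796, and with 1000-bp segments as units at least 1 segment was called in 921, 375, 682, 1188 and 584 (13.6%, 8.52%, 11.1%, 18.5% and 12.3% against 5.96%, 3.801%, 5.16%, 7.73% and 6.32%). Under another adjustment, a limit of 10 points or another number of reads per position the counts stayed within 1.5 times. Leaving out 1 bull gave 3849 (without L05, 47.4% against 7.84% of all tiles) to 4663 (without H09, 53.7% against 9.12%) in GL. In SCE it gave 2386 (without H03, 42.8% against 6.20%) to 3905 (without H01). In BDE it gave 3372 (without H05, 45.03% against 7.06%) to 3869 (without L08, 46.3% against 7.79%). In CCR it gave 3761 (without L06, 50% against 8.79%) to 4456 (without L08, 51.9% against 10.97%). Without H08 the CCR share was 51.3% against 16.9%. In SCR it gave 2802 (without L02, 48.4% against 8.77%) to 4537 (without H01). The shares without H01, the bull with the fewest positions, are given with the logistic test above. The further leave-one-out counts were chosen after seeing the data. At matched positions they were 53 (without L05) to 105 (without H03, 1.29% against 2.19% of all tiles) in GL. In SCE they were 14 (without L02) to 40 (without H01). In BDE they were 35 (without H05) to 54 (without H09, 0.684% against 1.52%). In CCR they were 103 (without H06) to 562 (without H08), with 137 without L06. In SCR they were 24 (without H03 or L01) to 42 (without H01, 0.473% against 1.22%). The shares for the other omissions named here are given with the matched test above. With segments as strata GL gave 926 (without L05, 11.8% against 5.23% of all tiles) to 1204 (without H05, 15.1% against 5.83%). SCE gave 506 (without H06, 10.9% against 4.63%) to 1064 (without H01, 13.4% against 4.65%). BDE gave 828 (without H05, 12.2% against 4.83%) to 931 (without L02, 13.4% against 5.38%). CCR gave 1133 (without H06, 17.2% against 6.05%) to 1843 (without H08, 25.7% against 14.8%). SCR gave 714 (without H03, 14.1% against 6.50%) to 1276 (without H01, 15.3% against 6.76%). Without H01 more tiles could be tested. The cause of the other changes was not tested. A bull listed as few as 4.09% of low-segment positions, and the reads per position of 12 bulls are unknown.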
